A study of Homo sapiens with 4 samples.

Results

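The 10 mRNAs described here code for proteins known as substrates, nucleolar partners or the promoter recruiter of SIRT7: POLR1E, UBTF, MYBBP1A, RRP9, FBL, NPM1, CDK9, DDB1, GABPB1 and ELK4. They were chosen by gene symbol among the 23615 genes of the deposited table, and all 10 were present and passed the filter on low counts. SIRT7 is a deacylase that removes acyl groups from protein lysines with the help of NAD. It is enriched in the nucleolus, where it binds the machinery of RNA polymerase I and supports the transcription and processing of ribosomal RNA. Outside the nucleolus it acts on regulators of RNA polymerase II transcription and on chromatin, to which the DNA-binding factor ELK4 can bring it. The comparison asked whether the mRNAs of these proteins were recovered along with SIRT7.

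RNA that came down with Flag-SIRT7 (2 RIP libraries) was compared with total cellular RNA (2 input libraries). All 4 libraries, RIP and input alike, came from 1 line of HEK 293T, human embryonic kidney cells, that carried the Flag-SIRT7 overexpression construct, and the labels do not say whether it was a clone. RIP, RNA immunoprecipitation, pulls a protein out of a lysate with the RNA attached to it, here on an anti-Flag gel, and ribosomal RNA was depleted from RIP and input alike. A mock pull-down from untagged cells was not analysed here, so RNA held by the gel itself is part of every RIP value. Nothing in the labels ties the replicates to separate cultures, and the p-values measure only the spread between these libraries, which may be technical.

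The RIP libraries held 25655455 and 25998032 fragments on genes and the input libraries 18131602 and 17310753. SIRT7 itself, whose transgene and endogenous copies share fragments, stood at 43930 and 43180 CPM in RIP and at 1148 and 1181 CPM in input. CPM are fragments per gene brought to a common library size with TMM factors, which level the libraries on the bulk of the genes. Genes reported as expressed in the HEK293 line (VIM, KRT8, KRT18, NEFL, NEFM and INA) summed to 976 to 986 CPM in RIP and 624 to 677 CPM in input, while 15 markers of other cell types summed to 7.98 to 11 CPM in RIP and 7.87 to 8.71 CPM in input, with CD3E, HBB, INS and KRT5 at 0 in every library. Most of the HEK293 sum was VIM, at 757.5 and 777.8 CPM in RIP and 446 and 499 CPM in input. KRT8 and KRT18 were also higher in RIP, NEFM and INA overlapped between the groups, and NEFL was lower. The mean of NEFL was 24.8 CPM in RIP, against 51.1 CPM in input. The part of these markers in the results was not tested.

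The mRNAs of the 10 SIRT7 substrates and partners did not move as one group. Those of the snoRNP proteins FBL and RRP9 and of the ubiquitin ligase adaptor DDB1 were 3.49-fold, 2.60-fold and 1.90-fold higher in RIP than in input, and that of ELK4 was lower, at 0.302 of its input level. On the TMM scale CDK9, NPM1 and POLR1E rose less, MYBBP1A fell slightly, and UBTF and GABPB1 did not pass the test. Removing the trend of fold change with transcript length, described further on, turned the sign of 4 of the 10: NPM1 (-0.33 on the log2 scale) was then called lower, MYBBP1A (0.23) and UBTF (0.41) higher, and POLR1E (-0.06) not called. GABPB1 (-0.51) was then called lower. With edgeR's quasi-likelihood test at a Benjamini-Hochberg adjusted p of 0.05, 6 of the 10 were higher and 2 lower. Over all 14555 tested genes the same rule called 38% higher and 39.7% lower, together 77.7%, so a call of either kind was common. FBL, RRP9 and ELK4, 3 of the 10, were called and at least 2-fold apart, beside 36.6% of all tested genes. The CPM values of the RIP and input libraries did not overlap for any of the 10, and for 89.2% of all tested genes they did not overlap either. The median log2 fold change was 0.46 over the 10 and -0.03 over all tested genes. Each fold change is an mRNA's level in the pulled-down RNA over its level in total RNA, both on the TMM scale. It is therefore relative to the bulk of the genes and is not a ratio of plain shares. The libraries are bulk, so in a level fewer cells holding an mRNA and less of it per cell cannot be told apart.

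**Figure D1:**
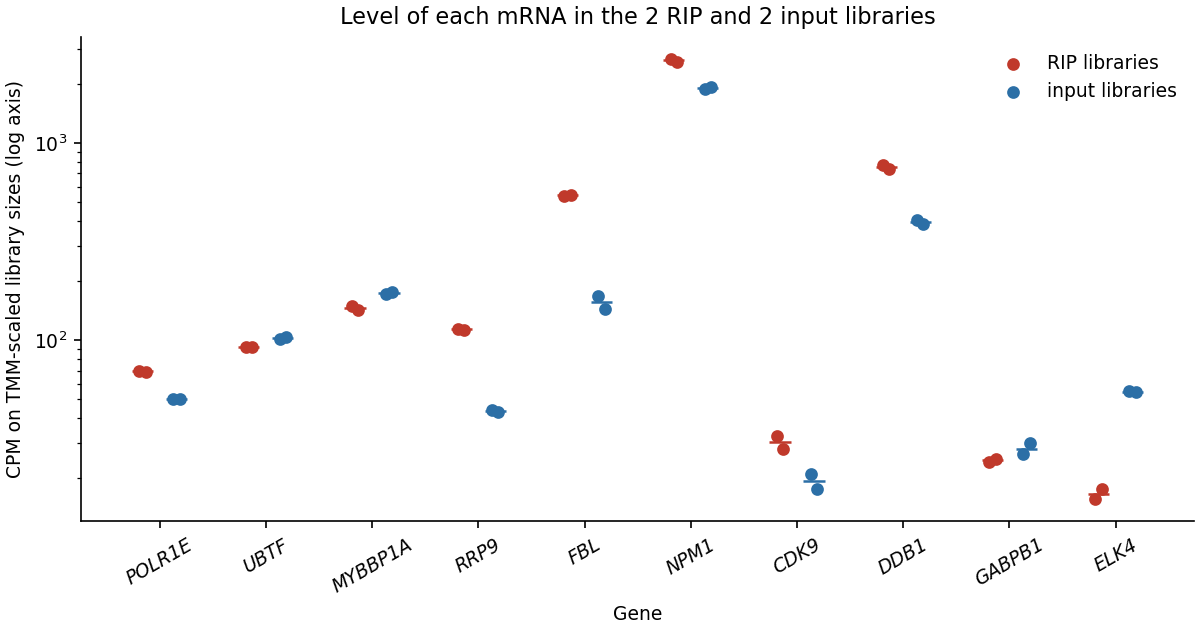
Level of each mRNA in CPM on TMM-scaled library sizes (log axis), with 1 point per library, RIP in red left of input in blue, and a bar at each group mean (n = 2). The RIP points of FBL lie at 540 and 542 CPM, above its input points at 167 and 144 CPM, and those of ELK4 at 15.7 and 17.5 CPM lie below its input points at 54.9 and 54.6 CPM.

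All values are relative to what was sequenced, and the scale matters for them. SIRT7 alone took 3.41% and 3.35% of fragments in RIP, against 0.149% and 0.151% in input. On plain library totals in place of TMM factors the median log2 fold change of all genes moved to -0.76. There 2481 genes were higher and 9539 lower, against 5531 and 5783 on the TMM scale. The TMM factors were 0.777 and 0.776 in RIP, against 1.30 and 1.28 in input. The part of SIRT7 in this shift was not tested. The 10 mRNAs together held 0.348% and 0.336% of all fragments in RIP, against 0.379% and 0.374% in input. Most of this was NPM1 alone, at 0.207% and 0.199% in RIP, against 0.244% and 0.245% in input. The sum therefore mainly reflects NPM1 and does not describe the other genes. FBL, RRP9 and DDB1 stayed higher (1.07, 0.65 and 0.19 on the log2 scale) and ELK4 lower (-2.46) on library totals, each past the threshold, and UBTF (-0.88) and GABPB1 (-0.92) were called lower too.

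The first group codes for the RNA polymerase I machinery. POLR1E, also known as PAF53, codes for a subunit of the polymerase and a reported SIRT7 substrate. It stood at 69.95 and 68.55 CPM in RIP, against 50.3 and 50.4 CPM in input, so the groups lay far apart relative to the spread within each. It rose 1.38-fold, a log2 fold change of 0.46 with an SE of 0.0738 (edgeR adjusted p = 3.334e-05). With library totals the direction turned to -0.27 (adjusted p = 0.003455), and with the length trend removed it was at -0.06 and not called (adjusted p = 0.428).

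UBTF, the HMG-box factor that occupies ribosomal DNA, had 91.9 and 92.6 CPM in RIP and 101 and 104 CPM in input. The RIP values were a little below the input values, and the difference did not pass the test (-0.15 on the log2 scale, SE 0.069, edgeR adjusted p = 0.06473). Without the first input library it did (-0.17, adjusted p = 0.03198), in a fit where the lone input library is assumed to vary like the RIP libraries. UBTF turned to 0.41 and was called higher with the length trend removed (adjusted p = 1.618e-05). MYBBP1A, a nucleolar protein that works with RNA polymerase I and in ribosomal RNA processing, had 148 and 141 CPM in RIP, against 170 and 175 CPM in input. It fell by 0.25 on the log2 scale (SE 0.0683, edgeR adjusted p = 0.003256). The call was lost without the second RIP library (-0.21, adjusted p = 0.1009), where the lone RIP library is assumed to vary like the input libraries, and turned to higher with the length trend removed (0.23, adjusted p = 0.002763). SPNS2, which overlaps MYBBP1A in the RefSeq annotation, had 49 fragments in each RIP library and 58 and 36 in input, where MYBBP1A had 2957 and 2850 in RIP and 4005 and 3871 in input.

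On the TMM scale the largest rises among the 10 were those of the proteins that work with box C/D snoRNAs. These small RNAs guide methylation and processing of ribosomal RNA. With the length trend removed the rise of DDB1 was larger. FBL codes for fibrillarin, the methyltransferase of these particles. Its mRNA stood at 540 and 542 CPM in RIP, against 167 and 144 CPM in input. The RIP libraries were nearly equal, and most of its spread lay between the input libraries. FBL was 3.49-fold higher, with a log2 fold change of 1.80 and an SE of 0.0784 (edgeR adjusted p = 1.139e-11), above that of 95.4% of all tested genes. RRP9 codes for U3-55K, a protein of the U3 snoRNP that acts in the first cleavages of the ribosomal RNA precursor. It had 114 and 113 CPM in RIP, against 44.2 and 42.9 CPM in input, with little spread in either group. RRP9 was 2.60-fold higher, with a log2 fold change of 1.38 and an SE of 0.0724 (edgeR adjusted p = 8.425e-11), above 89.8% of tested genes. FBLL1, a close relative of FBL counted as a gene of its own, had 97 and 90 fragments in RIP and 22 and 27 in input, where FBL had 10761 and 10931 in RIP and 3919 and 3181 in input.

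NPM1, the gene of the abundant nucleolar chaperone nucleophosmin, had the highest FPKM, a level per length, of the 10. It stood at 2671 and 2568 CPM in RIP, against 1877 and 1920 CPM in input. Its fold change of 1.38 (0.46 on the log2 scale, SE 0.0668, edgeR adjusted p = 1.081e-05) lay close to that of POLR1E on this scale. With the length trend removed NPM1 was called lower, at -0.33 (adjusted p = 8.889e-06), while POLR1E was not called. In plain shares of all fragments NPM1 was lower in RIP, at 0.207% and 0.199%, against 0.244% and 0.245% in input, and with library totals its log2 fold change was -0.27 (adjusted p = 0.0008935). The reference annotation names 50 processed copies of NPM1 as pseudogenes, none of which is a gene of the deposited table, and how the authors treated fragments that match several copies is not given in the sources used here. Its level is uncertain to that extent.

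Among the nuclear regulators, DDB1 rose most. It codes for the adaptor that links substrate receptors to the CUL4 ubiquitin ligases. It had 773 and 734 CPM in RIP, against 407 and 386 CPM in input, 1.90-fold higher in RIP (0.92 on the log2 scale, SE 0.0691, edgeR adjusted p = 5.443e-09). The lowest RIP library was well above the highest input library. CDK9, the kinase of the elongation factor P-TEFb, had 32.6 and 28.1 CPM in RIP, against 20.8 and 17.6 CPM in input. The groups did not overlap, but the libraries within each differed more than for the genes above. It rose 1.58-fold (0.66 on the log2 scale, SE 0.108, edgeR adjusted p = 4.132e-05). With library totals it was at -0.07 and no longer past the threshold (adjusted p = 0.5476).

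GABPB1 codes for the subunit that joins the DNA-binding protein GABPA in the factor GABP, an activator of nuclear genes for mitochondrial proteins. It had 24.1 and 25.0 CPM in RIP, against 26.3 and 29.97 CPM in input. The nearest RIP and input values lay closer together than the input libraries did (-0.19 on the log2 scale, SE 0.0954, edgeR adjusted p = 0.07559). Without the first input library, with the spread again taken from the RIP libraries, it was at -0.29 and past the threshold (adjusted p = 0.01454). Without the second it was at -0.08 (adjusted p = 0.5052). GABPB1-AS1, a long non-coding gene that the RefSeq annotation places over GABPB1, was lower in RIP, at 13.5 and 12.99 CPM, against 23.5 and 21.0 CPM in input (-0.75 on the log2 scale, edgeR adjusted p = 8.768e-06). The libraries were made with a kit that marks strand, but whether the counting used it is not given in the sources used here, so fragments of the 2 genes may not be fully separated.

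ELK4, an ETS factor that acts with serum response factor, had the largest fall of the 10. It stood at 15.7 and 17.5 CPM in RIP, against 54.9 and 54.6 CPM in input. The input libraries were nearly equal, and both RIP libraries were far below them. These values rest on 312 and 352 fragments in RIP, against 1293 and 1207 in input. Its log2 fold change was -1.73 (SE 0.0905, edgeR adjusted p = 8.332e-11), with 6.91% of tested genes lying lower.

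**Figure D2:**
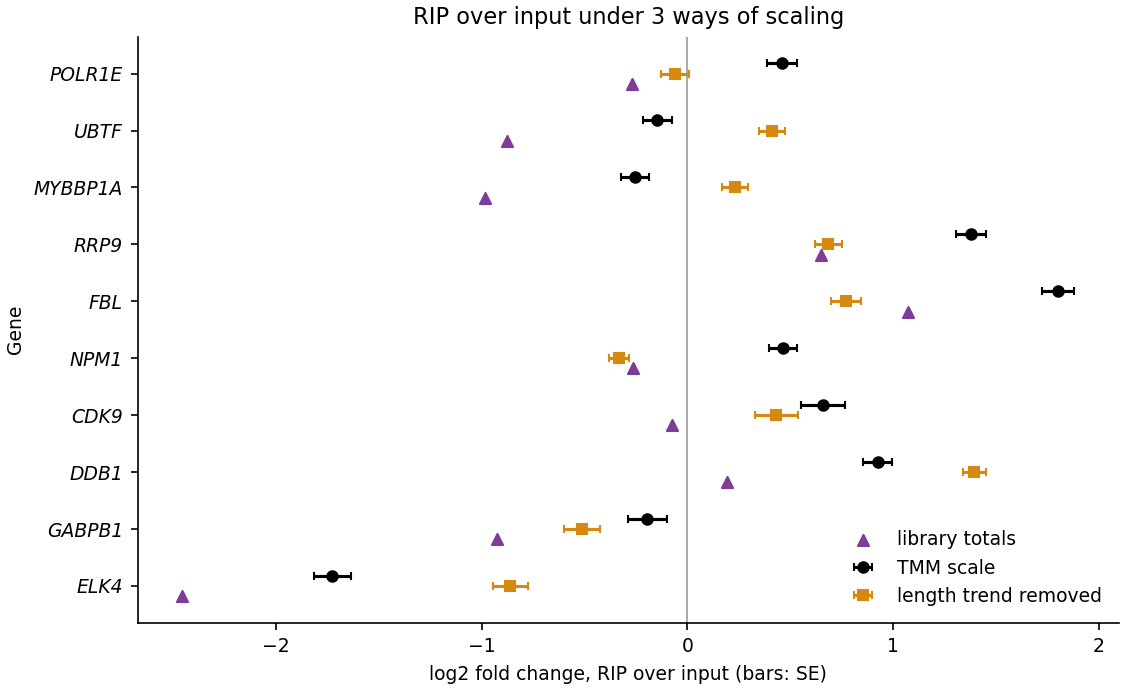
Log2 fold change of each mRNA, RIP over input, on the TMM scale (black circles, bars are the SE of the edgeR fit), with the length trend removed (orange squares, bars are the SE) and with library totals (purple triangles, no bar drawn). FBL, RRP9 and DDB1 are above 0 and ELK4 and GABPB1 below 0 on all 3, while POLR1E, NPM1, UBTF, MYBBP1A and CDK9 lie on both sides of 0.

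Levels of different genes can be set side by side only per length, for which the authors' FPKM values (fragments per kilobase of transcript, scaled to library size) were used. In RIP the order of mean FPKM was NPM1 (1985), FBL (525), DDB1 (170), RRP9 (76.7), POLR1E (39.2), MYBBP1A (32.2), UBTF (19.1), CDK9 (12.5), GABPB1 (12.1) and ELK4 (3.68). In input NPM1 (1422), FBL (149) and DDB1 (88.2) again came first, followed by MYBBP1A (37.8), RRP9 (29.1), POLR1E (28.1), UBTF (20.9), GABPB1 (11.6), CDK9 (7.81) and ELK4 (5.57). RRP9 and POLR1E stood above MYBBP1A in RIP and below it in input. The FPKM of CDK9 and GABPB1 overlapped in RIP, with 13.4 and 11.6 for CDK9 and 11.9 and 12.3 for GABPB1, and in all other neighbouring places the libraries of the 2 genes did not overlap.

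Among the 10 mRNAs, as among all tested genes, longer transcripts tended to have lower fold changes. Effective length was read from the table as scaled fragments divided by FPKM and is given relative to the median tested gene. Across the 10 genes Spearman's rho between length and log2 fold change was -0.71, and across all 14555 tested genes it was -0.60. Genes are not independent replicates, since they share the 4 libraries, and no test is given. FBL (0.359 of the median length) and RRP9 (0.514) were the highest, with NPM1 (0.459) and POLR1E (0.616) also short. ELK4 (2.30, a geometric mean over the 4 libraries) was the longest and the lowest. Its length was 3.52 and 3.25 in input but 1.54 and 1.59 in RIP, where UBTF was longer. DDB1 stood out from this order: it rose at a length of 1.55 times the median, close to UBTF (1.68) and MYBBP1A (1.57), which did not rise.

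**Figure D3:**
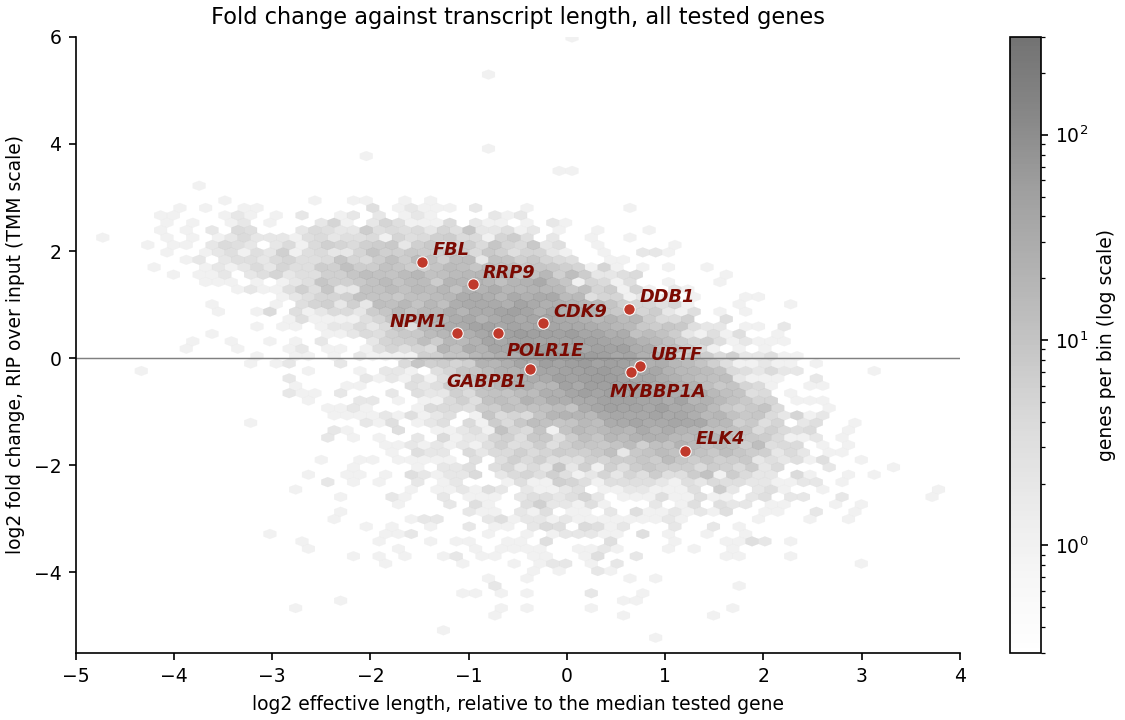
Log2 fold change, RIP over input on the TMM scale, against log2 effective length relative to the median tested gene, with shading for the number of genes per bin (log scale) and the 10 mRNAs as red points. DDB1 lies at the upper edge of the genes of its length, while FBL and RRP9 lie among other short genes in its upper part, and 25 of 14555 genes fall outside the axes.

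When the length trend was taken out of each library with offsets and the same edgeR test was run, 6 of the 10 were higher and 3 lower, beside 34.7% higher and 35.6% lower, together 70.3%, over all genes tested. The members of these counts were not the same as before. DDB1 became the highest, at 1.39 on the log2 scale (SE 0.0559, edgeR adjusted p = 5.978e-13) and above 96.8% of tested genes. FBL and RRP9 remained higher at 0.77 (adjusted p = 5.3e-08) and 0.69 (adjusted p = 5.741e-08), and CDK9 at 0.43 (adjusted p = 0.001168). FBL and RRP9 then lay above 85.6% and 82.8% of tested genes. UBTF and MYBBP1A joined the higher ones, NPM1 turned to lower and POLR1E was not called, with the values given above. GABPB1 was now called lower at -0.51 (adjusted p = 5.031e-05), and ELK4 stayed lower at -0.86 (adjusted p = 6.555e-08). The median of the 10 was 0.32, against -0.03 over all genes tested.

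For ELK4 and GABPB1 the length itself differed between the groups. Cuffdiff, named in the submitters' processing notes, sums a gene from its isoforms, so a gene's effective length can differ between libraries. The effective length of ELK4 was 1.54 and 1.59 times the median gene in RIP, against 3.52 and 3.25 in input, so that in RIP it was 0.462 of its input length. Counting ELK4, 12 of 14541 tested genes with a length in both groups (0.0825%) had a ratio as low as this. GABPB1 was at 0.710 in both RIP libraries, against 0.816 and 0.858 in input, a ratio of 0.849, and 1.85% of genes had this ratio or a lower one. For 85.1% of genes the RIP and input lengths were equal within 1%, as they were for each of the other 8 mRNAs. The RIP and input lengths of ELK4 did not overlap, nor did those of GABPB1, but isoform values were not analysed here and the difference was not tested.

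**Figure D4:**
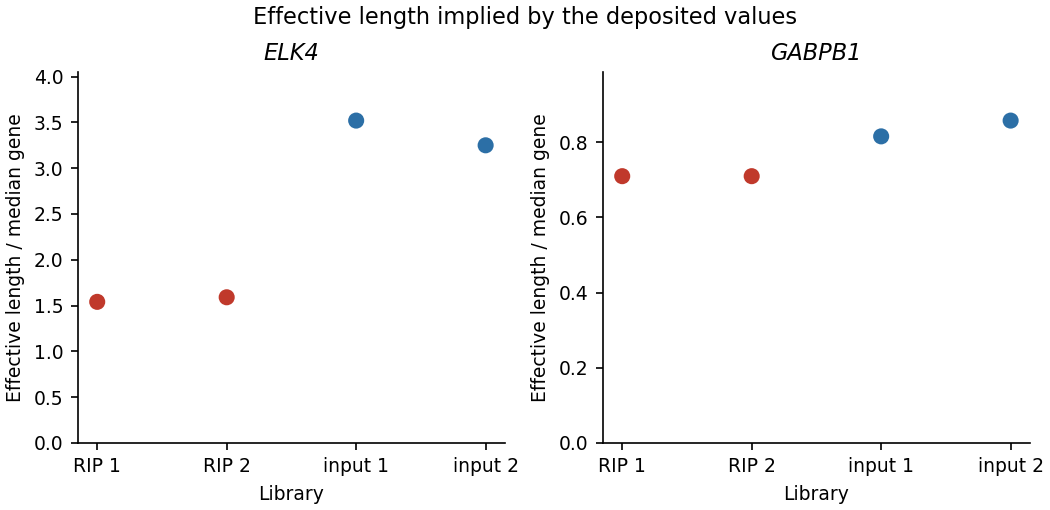
Effective length of ELK4 and GABPB1 in each library, as a multiple of the median tested gene, RIP in red and input in blue, both axes starting at 0. ELK4 lies at 1.54 and 1.59 in RIP and at 3.52 and 3.25 in input, and GABPB1 at 0.710 in both RIP libraries and at 0.816 and 0.858 in input.

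This length difference changes the size of 2 results. On FPKM the authors' shorter RIP length offsets part of the missing fragments of ELK4, which stood at 3.55 and 3.81 FPKM in RIP, against 5.32 and 5.82 FPKM in input. On the log2(FPKM + 1) scale its fold change was -0.49 (limma adjusted p = 0.001114), called lower as well, while the fragment counts gave -1.73. With the length trend removed, ELK4 was at -1.25 when the lengths of the RIP libraries were used and at -0.53 with those of the input libraries, choices made after the data were seen. GABPB1 was at 0.06 on the log2(FPKM + 1) scale (limma adjusted p = 0.5223), not called in either direction.

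The sequences just upstream of these genes were read because ELK4 and GABPA, the DNA-binding partner of GABPB1, belong to the ETS family, whose binding sites often hold the letters CCGGAAG. RefSeq windows (GRCh38.p14, from 250 bases before to 50 after a gene's start) were matched by symbol for 9 of the 10 genes, all but POLR1E, in 11 windows, since a gene can have several. The 7 letters, searched on both strands, were found for CDK9, ELK4, FBL and RRP9, that is 4 of 9 genes and 4 of their 11 windows, beside 21.1% of the 10398 tested genes with a window and 10.3% of all 35116 windows. The 8 letters CCGGAAGT, which contain the 7, were found for CDK9 and ELK4, beside 9.40% of those tested genes and 4.14% of all windows. The matches began 12 bases before the start of CDK9, 22 before that of ELK4, 193 before that of FBL and 231 before that of RRP9. They are shown with their neighbouring bases on the gene's strand, capitals marking the 7 letters. The stretches lie at chr9:127786002-127786033 (plus strand), chr1:205632012-205632053 (minus strand), chr19:39846546-39846592 (minus strand) and chr3:51942109-51942154 (minus strand), in the order given here.
CDK9: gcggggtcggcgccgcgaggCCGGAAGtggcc
ELK4: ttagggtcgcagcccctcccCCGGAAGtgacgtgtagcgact
FBL: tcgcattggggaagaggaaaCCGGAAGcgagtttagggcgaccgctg
RRP9: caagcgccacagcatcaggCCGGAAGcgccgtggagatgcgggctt
These letters are a description of the windows, since no binding to DNA was measured. The genes that hold them include the highest (FBL) and the lowest (ELK4) fold change of the 10.

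Most of these proteins work in complexes, and the mRNAs of their other parts and of related factors were counted in lists, on the TMM scale unless said otherwise. With library totals the values of a list lie lower by about as much as the median of all genes does, so a named gene that was only slightly higher can fall below 0 there. Each list is to be read beside all tested genes, of which 38% were higher and 39.7% lower. With the length trend removed these shares were 34.7% and 35.6%. With library totals 2481 of the 14555 tested genes were higher and 9539 lower. Of 19 further genes of RNA polymerase I subunits and factors, 9 were higher and 8 lower, and their median was -0.04 on the log2 scale, beside -0.03 over all tested genes. The small subunits shared with other polymerases were at the top, POLR2L at 2.59 and POLR2E at 1.83. TCOF1, whose product treacle supports ribosomal RNA synthesis, was at -1.29, and TAF1D, of the promoter factor SL1, at -1.22. POLR1E lay between these ends, above the list's median, and UBTF and MYBBP1A lay a little below it. These positions turned with the length trend removed, where the list's median was 0.09. POLR1E (-0.06) was then below it and UBTF (0.41) and MYBBP1A (0.23) were above it. Removal of the length trend gave 8 higher and 6 lower, and library totals gave 7 and 12.

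Of 22 genes of box C/D snoRNPs and the U3 processome, 10 were higher and 6 lower, with a median of 0.12. FBL was above the highest other gene of this list, NHP2L1, which codes for the 15.5K protein of the same particles and was at 1.59. It was followed by IMP3, a U3 partner, at 1.54. The other core proteins of the FBL particle did not rise with it: NOP56 fell by 0.89, and NOP58 was at 0.05 (edgeR adjusted p = 0.4793). HEATR1, a large processome protein, was the lowest at -1.61. Length-corrected values were 0.85 for NHP2L1, -1.31 for NOP56 and -0.41 for NOP58, and FBL was at 0.77, so the 4 core mRNAs lay on both sides of 0 there too. FBL was then no longer above the list: NHP2L1 lay above it, and BMS1 was the highest at 2.51. With library totals 4 genes of the list were higher and 15 lower.

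Nucleolar proteins beside nucleophosmin were mostly higher, 13 of 16 tested and 2 lower, a share of 81.2% beside 38% of all genes, with a median of 0.78. With library totals 5 were higher and 6 lower, where 2481 of all 14555 tested genes were higher and 9539 lower. NHP2 and NOP10, small proteins of H/ACA snoRNPs, were at 2.13 and 1.60, while DKC1, the pseudouridine synthase of the same particles, and NOLC1 were the lowest at -0.55 and -0.21. NPM1, at 0.46, was below the list's median. With the length trend removed 11 were higher and 2 lower (median 0.32). NHP2 was then at 0.82 and DKC1 at -0.73, but NOP10 was at -0.14 and not called (edgeR adjusted p = 0.05478). NOLC1 turned to 0.14 and was called higher (adjusted p = 0.03316).

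On the TMM scale CDK9 and DDB1 were higher in RIP, while many of the genes they work with were lower. Of 14 genes of P-TEFb, its 7SK inhibitor and its elongation partners, 3 were higher and 8 lower, with a median of -0.78. The share lower was 57.1%, beside 39.7% of all tested genes. The cyclin genes CCNT1 and CCNT2, whose products activate CDK9, were at -1.23 and -1.83, and at -0.26 and -0.88 with the length trend removed. AFF1, a scaffold of the super elongation complex, and ELL2 were the lowest at -1.95 and -1.84. HEXIM2, an inhibitor of P-TEFb, was at 1.51 and MEPCE, which caps the 7SK RNA, at 0.66, equal to CDK9 on the TMM scale. With library totals 1 gene was higher and 12 lower. Once length was corrected 4 were higher and 7 lower and the median was -0.23, nearer to the 0.43 of CDK9. Of 17 genes around the CUL4 ligases, 3 were higher and 10 lower, with a median of -0.34. Here 58.8% were lower, beside the same 39.7%. RBX1, the RING subunit, was at 1.91 and NEDD8, the modifier of cullins, at 1.25, and both are short mRNAs (0.262 and 0.158 of the median length), at 0.64 and -0.35 with the length trend removed. The scaffolds CUL4A and CUL4B were at -0.34 and -0.69, but at -0.03 each and not called with the length trend removed (edgeR adjusted p = 0.7289 and 0.7381). The receptor gene DCAF8 was at -0.97, and NR2C2, a nuclear receptor reported as a target of the ligase in mouse, at -2.26. With library totals 2 genes were higher and 14 lower. Length correction gave 3 higher and 9 lower with a median of -0.24. After it DDB1 (1.39) was above every tested gene of this list, of which DDA1 was the highest at 1.02.

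**Figure D5:**
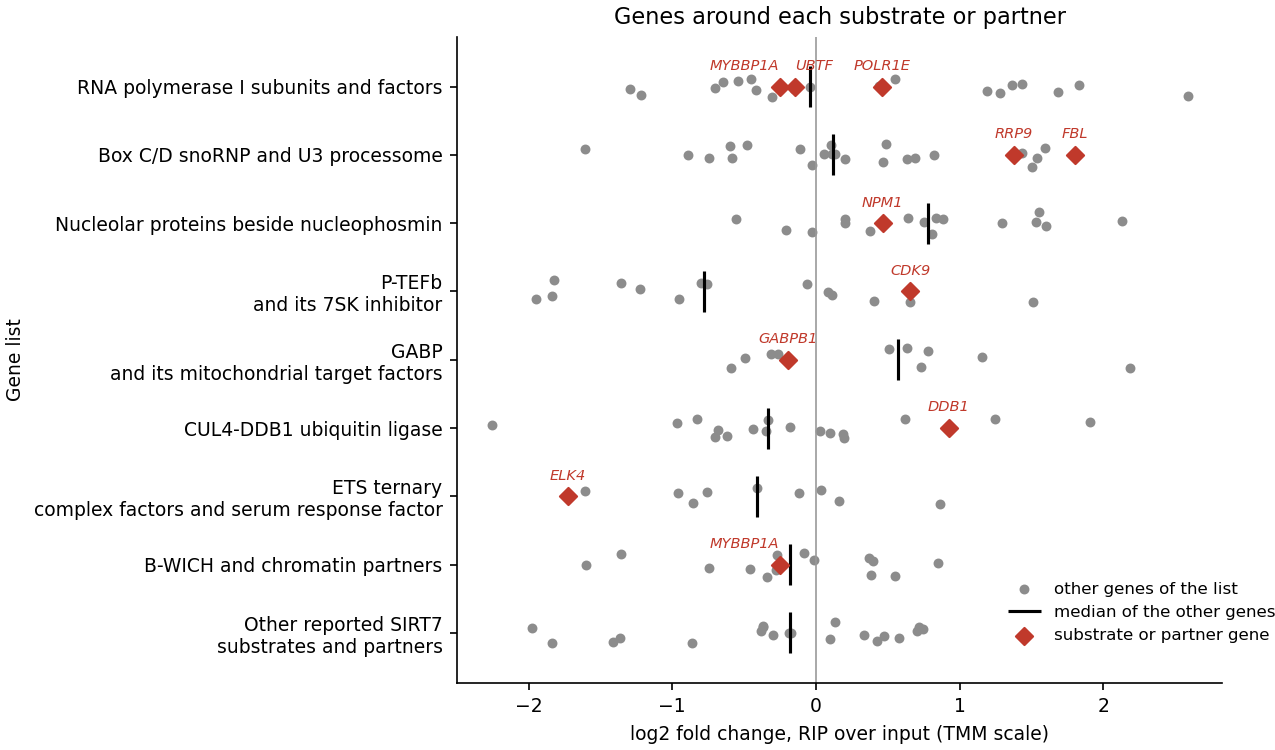
Log2 fold change, RIP over input on the TMM scale, of the tested genes of 9 lists (grey points, 1 per gene, shifted up or down to separate them), with the median of these genes as a black line and the 10 substrate and partner genes as red diamonds, MYBBP1A in 2 of the lists. CDK9 and DDB1 lie to the right of their lists' medians of -0.78 and -0.34, and ELK4 lies to the left of every gene of its list.

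The GABP list held genes of other GABP subunits, GABPA among them, and genes for mitochondrial transcription and mitochondrial proteins, some of them known targets. Of its 10 genes 6 were higher and 3 lower. Their median was 0.57, and -0.003 once length was corrected. Library totals gave 2 higher and 5 lower. COX4I1, of cytochrome oxidase, and MRPL24, of the mitochondrial ribosome, were at 2.19 and 1.16. GABPA was the lowest at -0.59, followed by TFB1M, a mitochondrial ribosomal RNA methyltransferase, at -0.49. With the length trend removed COX4I1 was at 0.84 and TFB1M at -0.56, while MRPL24 (-0.11) and GABPA (0.05) were not called. Of 9 ETS and serum response factor genes beside ELK4, 1 was higher and 4 lower, with a median of -0.41. Length correction gave 3 higher and 3 lower and a median of -0.11. ELK1, another factor of the same ETS subgroup, was at 0.86, opposite to ELK4, and SRF at 0.16 (edgeR adjusted p = 0.06453). MKL2, a coactivator of SRF, was at -1.60 and ELK3, a relative of ELK4, at -0.96. With the length trend removed ELK3 was at -1.33, below ELK4 at -0.86, and MKL2 was at -0.47. With library totals 8 of the 9 were lower.

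Of 14 genes of the B-WICH complex, to which MYBBP1A belongs, and other chromatin partners, 5 were higher and 7 lower, with a median of -0.18. SF3B1, a splicing factor, and GTF3C2, a subunit of TFIIIC, were the highest at 0.85 and 0.55, and BAZ2A, of a complex that silences ribosomal DNA, and SMARCA4, a chromatin remodeller, the lowest at -1.60 and -1.35. Many of these mRNAs are long, and after length correction 9 were higher and 4 lower with a median of 0.40, while with library totals 13 were lower. A further 20 genes of proteins reported as SIRT7 substrates or partners gave 7 higher and 10 lower, 35% and 50% of them, beside 38% and 39.7% of all tested genes. The chaperone gene HSPA5 and the GTPase gene RAN were the highest at 0.74 and 0.72, and TP53BP1 and ATM, of the response to DNA breaks, the lowest at -1.97 and -1.84. Length correction gave 6 higher and 9 lower, and with library totals 16 were lower. After length correction HSPA5 was at 1.11, but RAN turned to -0.395 and was called lower (edgeR adjusted p = 1.811e-06). TP53BP1 and ATM stayed lower, at -1.13 and -0.36.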

How the data were processed

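The submitters' processing notes name build hg19 and the tools Cuffdiff 2.2.1, TopHat2 2.0.13, Bowtie2 2.2.6 and cutadapt 1.5. The treatment of fragments that match several places, like the annotation and the strand setting, is not given in the sources used here. The authors deposited expected counts per gene, estimated fragments with no scaling (97.94% whole numbers). They also deposited these fragments as a scaled signal, with 1 factor per library, and as FPKM, which divides by length and library size too. Of 94460 entries, 12 were marked as failed. The table numbers libraries from 0, and library 0 was taken as replicate 1 of the labels.

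Counts were rounded and filtered with filterByExpr (minimum count 10, total 15). The test was glmQLFTest after glmQLFit with TMM factors and group alone in the model (R 4.3.3, edgeR 4.0.16), with Benjamini-Hochberg adjustment over all 14555 tested genes at 0.05. The SE is the log2 fold change divided by the square root of F. Length was corrected with lowess offsets (span 0.3) per library. The procedure was tested on simulated data in which few genes changed, as many up as down, or a length slope was added. Such data cannot tell whether TMM factors or library totals suit these libraries, where most genes were called. Alternatives were DESeq2 1.42.0, limma 3.58.1 on log2(FPKM + 1) and log2(FPKM + 0.1), library totals, no filter, the 10 most abundant genes left out, the replicate number as a block, and each library left out. Depth was 17310753 to 25998032 fragments per library, which bounds counting error only, and the common coefficient of variation was 5.68%. Libraries of 1 group differed beyond sampling noise, with a chi-square per gene of 3.40 in RIP and 6.17 in input.

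The 10 genes and all lists were chosen with earlier results of these data known. Named in the text are the 10 genes, SIRT7, and the 2 genes with the highest and the 2 with the lowest log2 fold change of each list, beside marker genes of HEK293 and of other cell types. Named after their values were seen are NOP58, BMS1, CCNT1, CCNT2, CUL4A, CUL4B, DDA1, FBLL1, SPNS2 and GABPB1-AS1. Sequences are RefSeq's on GRCh38.p14.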

Additional observations from a re-analysis of the deposited data

How the results depend on the processing

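With DESeq2, no count filter, the replicate block and without the 10 most abundant genes, all 10 genes kept their direction and their side of the threshold. FBL, RRP9 and DDB1 were called higher and ELK4 lower under every alternative run. With library totals, genes higher and lower numbered 2481 and 9539, members 3 and 6, and POLR1E (-0.27), NPM1 (-0.27) and CDK9 (-0.073) reversed, while UBTF (-0.88) and GABPB1 (-0.92) were called lower. That scaling moved the median of all genes from -0.03 to -0.76, and relative to this median CDK9 was at 0.688 with TMM and 0.687 with library totals. With the length trend removed POLR1E (-0.061), UBTF (0.41), MYBBP1A (0.23) and NPM1 (-0.33) reversed and GABPB1 (-0.51) was called. With input lengths, a choice made after seeing the data, these were -0.067, 0.405, 0.227, -0.339 and -0.435, and with RIP lengths, another such choice, -0.055, 0.405, 0.227, -0.324 and -0.578. With limma, GABPB1 reversed at 0.058 on log2(FPKM + 1) and at 0.062 when the pseudocount was 0.1, neither called. Leaving out each library, which leaves 1 library in its group, assumed to vary like the other group, gave 5142 to 5525 genes higher and 5227 to 5579 lower, 6 members higher throughout and 1 to 4 lower. The range was -0.173 to -0.107 for UBTF, -0.282 to -0.211 for MYBBP1A and -0.291 to -0.08 for GABPB1. Members lower numbered 4 without the first input library, where UBTF and GABPB1 were called, and 1 without the second RIP library, where MYBBP1A was not. The cause was not tested.

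Replicate numbers alone did not show a pairing: deviations of same-numbered libraries correlated at 0.041 over 14555 genes. With the replicate block 5580 genes were higher and 5862 lower, 6 and 2 of them members. With 2 libraries a group an exact permutation test of a single value cannot go below p = 0.33.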
